A study of Rattus norvegicus with 36 samples.

Results

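Immediate early genes are switched on within minutes of strong neuronal activity, without a need for new protein synthesis, and their mRNA usually falls back within hours. In the striatum they are well known to respond to psychostimulants through dopamine receptor, cAMP and MAP kinase signalling. Their products are mostly transcription factors that act on later genes, while Arc acts directly at synapses. Here 6 of them, Fos, Fosb, Junb, Egr1, Nr4a1 and Arc, were followed in rat ventral striatum (nucleus accumbens) 24 h after the last injection of cocaine. They were picked by Ensembl identifier (ENSRNOG00000008015, ENSRNOG00000046667, ENSRNOG00000042838, ENSRNOG00000019422, ENSRNOG00000007607 and ENSRNOG00000043465, in that order) among 31546 genes in the count tables. The choice was by name and not by a measured value, but earlier results of these data were known when it was made. All 6 were expressed above the filter on low counts that left 15641 genes for testing.

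All rats were 8-week-old male Sprague-Dawley rats that received 3 intraperitoneal injections per day, 1 h apart, for 5 days. The Sal–Sal group was given 15 injections of saline, Sal–Coc rats received saline and then 3 injections of cocaine (20 mg/kg each) on the last day, and Coc–Coc rats received 15 injections of cocaine. For Sal–Coc the sample labels count 13 saline injections and the study's methods 12, and the labels give 1 rat per library where the methods give a pool of 2 rats. The phenotype field calls the Coc–Coc rats vulnerable while their description calls them tolerant, so groups were taken from the titles. Each group had 3 pools, each sequenced as 4 technical replicates that were summed, and every pool is counted once (n = 3). Pool totals ranged from 36372166 to 42449841 counts, and replicate tables of the same pool were close to sampling noise (chi-square over its degrees of freedom, 1.0038 to 1.0226). Levels are given as CPM, counts scaled to a fixed library total, after TMM scaling, with factors between 0.9151 and 1.081. CPM values are not corrected for gene length, so they are compared between pools and not between genes. In these bulk samples fewer cells of a type and less RNA per cell cannot be told apart. The tables give identifiers without symbols, and no marker of striatal, cortical or septal neurons (0 of 25) could be tied to an identifier, so the labelled tissue was not checked against its markers.

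No difference between groups passed the test for any of the 6 genes at 24 h. By the quasi-likelihood test of edgeR, with p-values adjusted over all genes tested by Benjamini-Hochberg, 0 of 6 passed an adjusted p of 0.05 in Sal–Coc vs. Sal–Sal, where 16.4% of all tested genes passed. Likewise 0 of 6 passed in Coc–Coc vs. Sal–Sal, where 10.9% of all tested genes passed, and 0 of 6 in Coc–Coc vs. Sal–Coc, where 0% passed. At an unadjusted p of 0.05 the edgeR counts were 0, 1 and 0 of 6, beside 33.8%, 30.1% and 9.29% of all genes. The genes did differ widely between pools of the same group, and the intervals below show how large a group difference these pools leave room for. The median log2 fold change of the 6 genes was 0.01 in Sal–Coc vs. Sal–Sal, 0.07 in Coc–Coc vs. Sal–Sal and 0.21 between Coc–Coc and Sal–Coc, beside −0.01 over all genes in each of these comparisons. The 3 comparisons share pools and are not independent of each other.

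**Figure D1:**
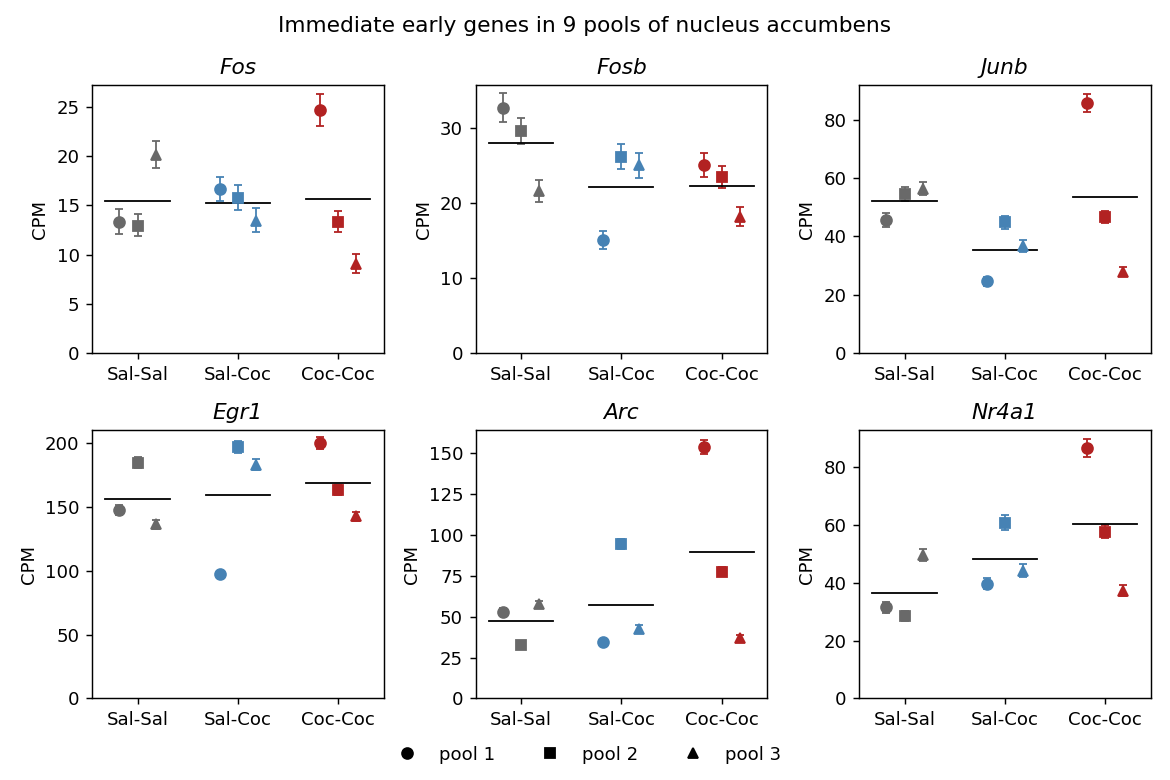
Level of each immediate early gene in every pool (y axis, CPM from 0; x axis, group). Symbols mark pools 1 to 3 of a group, black lines are group means, and bars are 95% Poisson intervals that cover counting error only. Coc–Coc pools 1, 2 and 3 lie in the same order from high to low in all 6 panels.

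Fos encodes the founding Fos-family subunit of the AP-1 transcription factor and is the usual marker of recently active neurons. Its level was 13.3, 13.0 and 20.1 CPM in the Sal–Sal pools, 16.6, 15.8 and 13.5 CPM in the Sal–Coc pools, and 24.7, 13.3 and 9.07 CPM in the Coc–Coc pools. The group means lay close together at 15.5 ± 4.04, 15.3 ± 1.65 and 15.7 ± 8.06 CPM (SD, n = 3), and both the highest and the lowest of the 9 pools were Coc–Coc pools. The log2 fold change was −0.02 (SE 0.32) in Sal–Coc vs. Sal–Sal and 0.02 (SE 0.32) in Coc–Coc vs. Sal–Sal, with edgeR adjusted p-values of 0.978 and 0.975. The 95% interval of the first ran from 0.606-fold to 1.62-fold and that of the second from 0.620-fold to 1.65-fold, so differences in either direction within those bounds could not be told from 0 here. Counting error was small beside the spread between pools. The lowest Fos count, 376 in Coc–Coc pool 3, has a counting error of 5.16%, while the coefficient of variation between Coc–Coc pools was 51.4%.

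Fosb encodes another Fos-family subunit, and a truncated splice form of it, ΔFosB, is known for building up in the striatum with repeated cocaine. Counts per gene do not separate the full-length from the truncated transcript. Fosb was at 32.6, 29.5 and 21.5 CPM in Sal–Sal, 15.0, 26.1 and 25.0 CPM in Sal–Coc, and 25.0, 23.4 and 18.1 CPM in Coc–Coc. The 2 highest pools were Sal–Sal pools 1 and 2, and Sal–Sal pool 3 lay inside the range of both cocaine groups. The log2 fold change against Sal–Sal was −0.34 (SE 0.22) in Sal–Coc and −0.33 (SE 0.22) in Coc–Coc, neither of which passed the edgeR test (adjusted p = 0.313 and 0.348). The interval for Coc–Coc vs. Sal–Sal ran from 0.563-fold to 1.12-fold. Sal–Coc and Coc–Coc means were 22.0 ± 6.10 and 22.2 ± 3.59 CPM, and their log2 difference was 0.01 with an interval from −0.49 to 0.51.

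Junb encodes a Jun-family partner of the Fos proteins. A stretch of its promoter holds matches to the core of the cAMP response element, on which CREB acts, and to a TATA box. It lies on the plus strand upstream of the RefSeq start at chr19:40080956-40081095 (GRCr8), and capitals mark TGACG and TATAAA.

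Junb: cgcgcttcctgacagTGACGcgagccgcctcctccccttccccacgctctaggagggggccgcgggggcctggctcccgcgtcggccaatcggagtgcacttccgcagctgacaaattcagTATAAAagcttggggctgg

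Junb was the only one of the 6 genes whose pools did not overlap between 2 groups. It was at 45.7, 54.5 and 56.3 CPM in Sal–Sal and at 24.7, 44.8 and 36.7 CPM in Sal–Coc, so that every Sal–Coc pool lay below every Sal–Sal pool. The gap was under 1 CPM between the closest pools. Over all tested genes, 36.1% had pools that did not overlap in this comparison, and the count of 1 in 6 is below that share. The log2 fold change was −0.56 (SE 0.35, 95% interval −1.34 to 0.22), which did not pass the edgeR test (adjusted p = 0.289), and the exact two-sided permutation test gave 0.1, the smallest p that 3 pools against 3 allow. In Coc–Coc the levels were 85.6, 46.6 and 27.9 CPM, from below all Sal–Sal pools to above every other pool, and the log2 fold change was 0.03 (SE 0.35) against Sal–Sal and 0.59 (SE 0.35) against Sal–Coc, with edgeR adjusted p-values of 0.962 and 0.601. Between Coc–Coc and either other group, 0 of the 6 genes had non-overlapping pools, beside, for Sal–Sal and Sal–Coc in turn, 36.7% and 17.2% of all genes. Without Coc–Coc pool 1 the value for Junb was −0.48 when Coc–Coc was set against Sal–Sal and 0.09 against Sal–Coc. Over the 9 fits without 1 pool these values ran from −0.48 to 0.34 and from 0.09 to 0.90.

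Egr1 encodes a zinc-finger transcription factor that is induced through serum response elements and the MAP kinase pathway. Its pools held 147.3, 184.3 and 136.2 CPM in Sal–Sal, 97.1, 196.8 and 182.9 CPM in Sal–Coc, and 199.9, 163.3 and 142.6 CPM in Coc–Coc. Sal–Coc pool 1 was the lowest of all 9 and stood apart from the other Sal–Coc pools, which were 2nd and 4th from the top. The log2 fold change was 0.03 (SE 0.24) in Sal–Coc vs. Sal–Sal, 0.11 (SE 0.24) in Coc–Coc vs. Sal–Sal and 0.09 (SE 0.24) between Coc–Coc and Sal–Coc. With an interval from 0.744-fold to 1.57-fold for Coc–Coc vs. Sal–Sal and edgeR adjusted p-values between 0.793 and 0.950 in the 3 comparisons, Egr1 was second to Fosb in the narrowness of its intervals.

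Nr4a1 encodes Nur77, an orphan nuclear receptor that takes part in dopamine-related responses of striatal neurons. A stretch upstream of its RefSeq start is shown because Nr4a1 had the most matches to the cAMP response element core among the promoters examined, and because it varied with Arc (below). It lies on the plus strand at chr7:134260038-134260107 (GRCr8), and capitals mark 2 of the matches, CGTCA being TGACG on the other strand.

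Nr4a1: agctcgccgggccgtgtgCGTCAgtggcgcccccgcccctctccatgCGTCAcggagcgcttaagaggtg

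The Nr4a1 level was 31.4, 28.5 and 49.4 CPM in Sal–Sal, 39.5, 60.6 and 44.1 CPM in Sal–Coc, and 86.4, 57.6 and 37.1 CPM in Coc–Coc. The means were 36.5 ± 11.3, 48.1 ± 11.1 and 60.4 ± 24.8 CPM (SD, n = 3), but Sal–Sal pool 3 lay above Coc–Coc pool 3, so the groups overlapped. Against Sal–Sal the log2 fold change was 0.40 (SE 0.31) in Sal–Coc and 0.73 (SE 0.31, 95% interval 0.04 to 1.41) in Coc–Coc. The latter was the single difference with an unadjusted p under 0.05 (0.0401 by edgeR), and it did not pass after adjustment (adjusted p = 0.147). DESeq2 gave an adjusted p of 0.0645 for it, and over all alternatives the adjusted p ranged from 0.0645 to 0.416. Without Coc–Coc pool 1 the log2 fold change was 0.38 with an edgeR adjusted p of 0.416, so its size leaned on that pool. Over the 9 fits without 1 pool the log2 fold change ran from 0.38 to 1.02.

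Arc encodes a cytoskeleton-associated protein of the postsynapse that controls the removal of AMPA receptors, and its mRNA travels to active dendrites. Among the 6 genes it had the largest fold change in Coc–Coc vs. Sal–Sal and the widest spread between pools. It was at 53.0, 32.4 and 57.4 CPM in Sal–Sal, 34.6, 94.5 and 42.4 CPM in Sal–Coc, and 153.6, 77.4 and 36.9 CPM in Coc–Coc. Coc–Coc pool 1 and Sal–Coc pool 2 were the 2 highest, while Coc–Coc pool 3 lay inside the Sal–Sal range. The log2 fold change was 0.26 (SE 0.50) in Sal–Coc vs. Sal–Sal and 0.91 (SE 0.51) in Coc–Coc vs. Sal–Sal, with edgeR adjusted p-values of 0.747 and 0.258. The interval of the latter, from 0.856-fold to 4.11-fold, was the widest of the 6. Without Coc–Coc pool 1 the value was 0.27 against Sal–Sal, and against Sal–Coc it was 0.02 where all pools gave 0.64. Over the 9 fits without 1 pool the Coc–Coc value ran from 0.27 to 1.28 against Sal–Sal. Against Sal–Coc it ran from 0.02 to 1.21. Without Sal–Coc pool 2 the value for Sal–Coc vs. Sal–Sal changed from 0.26 to −0.31, so its direction rested on that pool.

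**Figure D2:**
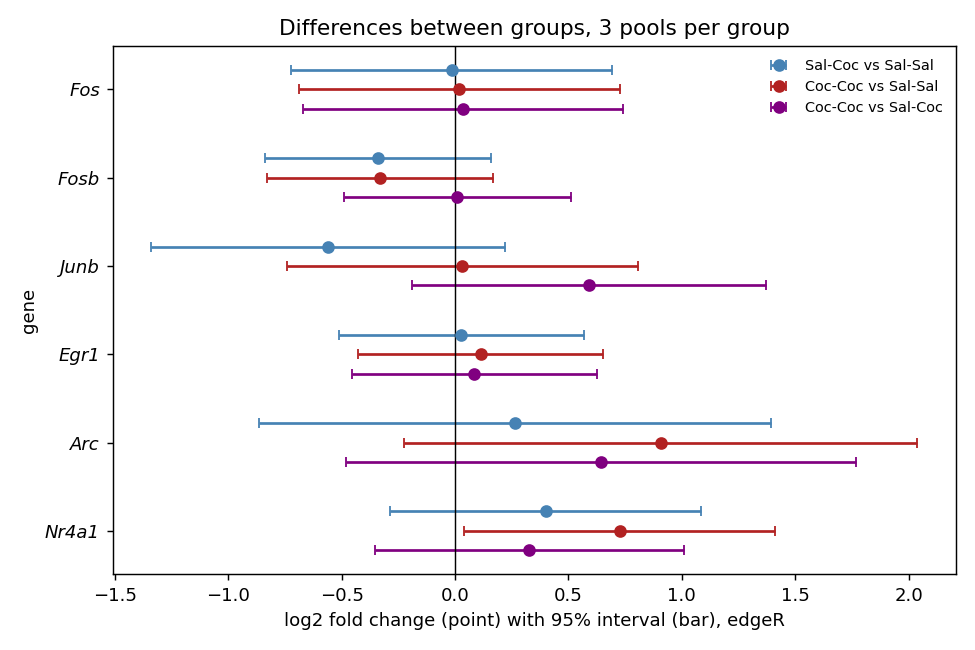
Log2 fold change (x axis) of each gene (y axis) in the 3 comparisons, with 95% intervals from edgeR (bars, n = 3 pools per group). All intervals include 0 except that of Nr4a1 in Coc–Coc vs. Sal–Sal, which runs from 0.04 to 1.41 before adjustment for the number of genes tested.

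Standard errors of the log2 fold changes ran from 0.22 for Fosb to 0.51 for Arc, against a median of 0.13 over all tested genes. At these errors, a log2 fold change against Sal–Sal of at least 0.74 for Fosb and up to 1.67 for Arc was needed in Sal–Coc vs. Sal–Sal to reach the p at which genes were called. The size needed was larger for each of the 6 genes in Coc–Coc vs. Sal–Sal. These are sizes of the measured change, not limits on the true one.

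The spread between pools was wider for these genes than for most genes of at least 10 CPM. Within groups, the SD of log2(CPM + 0.1) was 0.47 for Fos, 0.34 for Fosb, 0.54 for Junb, 0.38 for Egr1, 0.47 for Nr4a1 and 0.78 for Arc. The median over 9950 genes with a mean of at least 10 CPM was 0.12, and the 6 genes lay between the 95.2 percentile (Fosb) and the 99.9 percentile (Arc) of those genes. By group, the median SD of the 6 genes was 0.33 in the saline group, 0.44 in Sal–Coc and 0.67 in Coc–Coc, whereas over the 9950 genes it was 0.12, 0.11 and 0.09. The largest of the 3 group SDs fell in Coc–Coc for 4 of the 6 genes and in Sal–Coc for the other 2. Over all tested genes it fell in Coc–Coc for 23.5%. No test of the group SDs was made, since 3 pools per group give little information on a variance.

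**Figure D3:**
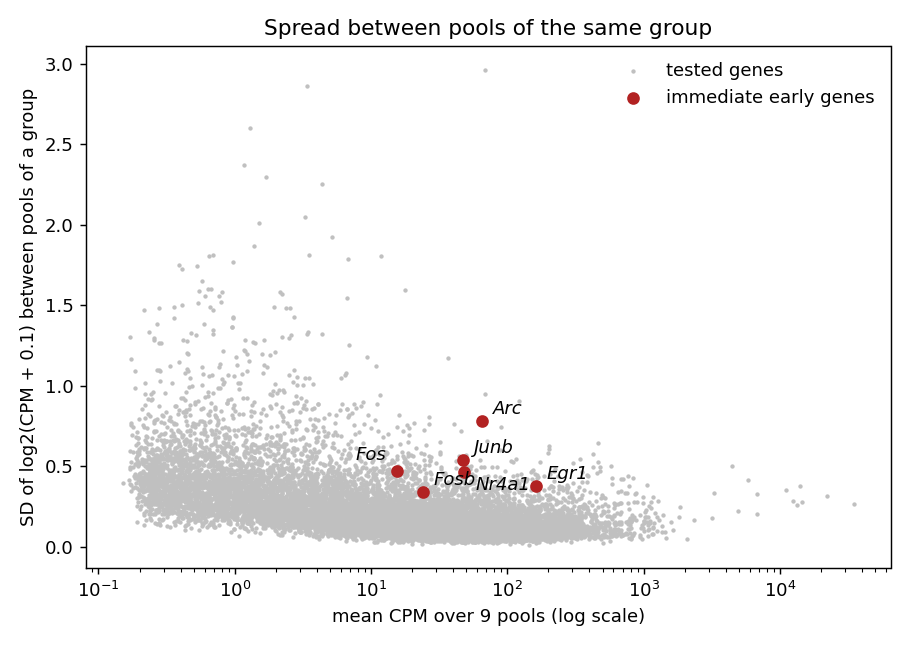
Spread between pools of the same group (y axis, within-group SD of log2(CPM + 0.1)) against mean level (x axis, CPM, log scale) for every tested gene (grey) and the 6 immediate early genes (red). The 6 genes lie in the upper part of the cloud, Arc at 0.78 and Fosb lowest at 0.34.

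The Coc–Coc pools differed in the same direction for all 6 genes. Pool 1 was above pool 2 and pool 2 above pool 3 in 6 of 6, an order held by 19.8% of all tested genes. The ratio of pool 1 to pool 3 was 4.16 for Arc (95% counting interval 3.93 to 4.40), 3.07 for Junb, 2.72 for Fos, 2.33 for Nr4a1, 1.40 for Egr1 and 1.38 for Fosb. Pool 1 was the highest of all 9 pools for 5 of the 6 genes, Fosb being the exception, and this was so for 8.41% of all genes. In Sal–Coc, pool 2 lay above pool 3 and pool 3 above pool 1 for Fosb, Junb, Egr1, Arc and Nr4a1, but not for Fos. A mostly shared order was thus not particular to Coc–Coc, and the share of all genes with the Sal–Coc order was not counted. The Sal–Sal pools had no order common to the 6 genes. Sal–Coc pool 2 was above the 9-pool mean for all 6 genes, and Sal–Coc pool 1 was the lowest of the 9 for Fosb, Junb and Egr1 but ranked 3 from the top for Fos. The total count of Coc–Coc pool 1, 37787122, and its TMM factor of 0.987 lay within the range of the other pools.

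Across the 9 pools, Arc and Nr4a1 varied together (Pearson's r = 0.90, exact permutation p = 0.00103, adjusted over 15 pairs 0.0154). Spearman's rho was 0.88 (exact permutation p = 0.00308, adjusted 0.0461). Without the 2 pools farthest from the median of Arc, r was 0.71 over 7 pools, and after each group was centred on its mean it was 0.92. This was the only pair of 15 to pass adjustment. Of the 15 pairs 14 had a positive r, with a median of 0.63. Without the 2 pools farthest from the median of the first gene of each pair, 11 were positive and the median was 0.12. Dropping the extreme pools of 1 gene narrows its range and by itself tends to lower r. The pools dropped also depend on which gene of a pair comes first, so this fall does not show what the relations rested on. Fosb and Egr1 had r = 0.72 (exact permutation p = 0.0302, adjusted 0.131), which was 0.12 without 2 pools. When groups were centred on their means, 7 of 15 pairs passed by Pearson's r and 5 by Spearman's rho, and all 15 had a positive r. Centred values sum to 0 within each group but were permuted over all 9 pools. Their p-values therefore tend to be too small, and these counts are not evidence of closer relations than the uncentred ones. With library size only, 1 pair passed by r and 0 by rho. All these coefficients share libraries.

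**Figure D4:**
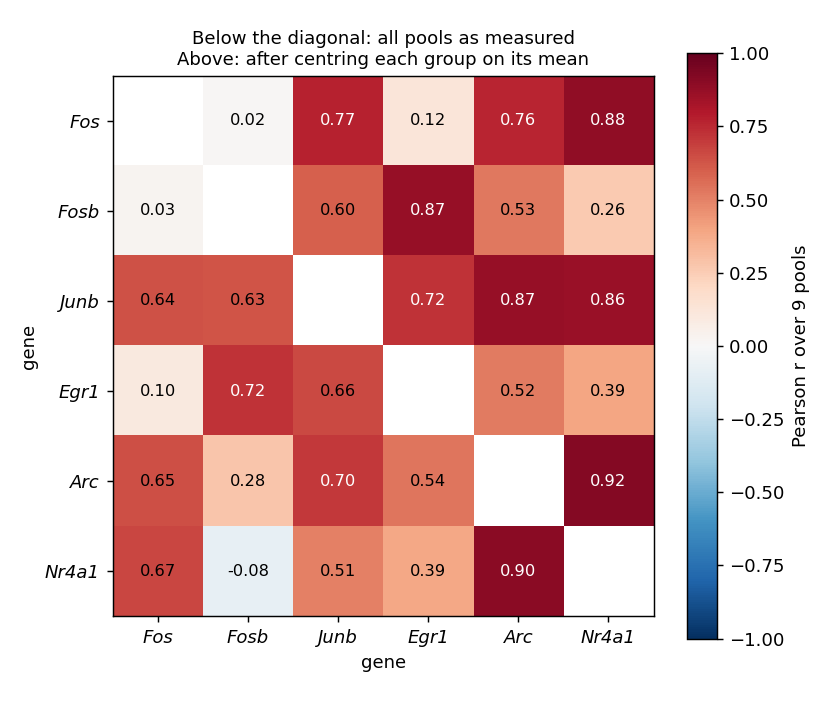
Pearson's r of log2(CPM + 0.1) between the 6 immediate early genes over 9 pools, as measured (below the diagonal) and with each group centred on its mean (above it). Colour and number both give r, and Arc with Nr4a1 has the highest value on both sides, 0.90 and 0.92.

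Of the 13635 tested genes with a mean of at least 1 CPM, the 3 most like each of the 6 in their pattern over the 9 pools had r between 0.90 and 0.99. Of these 18 genes, 17 have no symbol tied to their identifier and 1 was Nr4a1, ranked 3 for Arc. The gene closest to Arc was ENSRNOG00000014338 (r = 0.99), and the gene closest to the mean of the 6 was ENSRNOG00000050741 (r = 0.97). These coefficients are the highest of 13635 genes over 9 pools, and such picking by itself raises r. How high the best r would be for an arbitrary pattern was not computed, and no p is given.

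Promoter sequences from 250 bases before to 50 bases after the start were found in RefSeq (GRCr8) for 4 of the 6 genes, Fosb, Junb, Egr1 and Nr4a1. The cAMP response element core, TGACG on either strand, matched 4 times in Nr4a1, 2 times in Egr1, once in Junb and 0 times in Fosb, and at least once in 21.2% of 33469 rat promoters. Egr1 also held 2 matches to the CArG box, the site of serum response factor, which occurs in 1.64% of promoters. The TATAAA of Junb occurs in 8.80% of promoters. Matches of letters are a description of these windows only.

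Of 86 other genes of the immediate early response and its signalling, 9 could be tied to an identifier. They could be tied because the study itself had called them in these libraries, so their changes are not independent evidence and their number cannot be read as a share. Of 24 other immediate early transcription factors listed, 4 were tied to an identifier, and all 4 passed the edgeR test in Sal–Coc vs. Sal–Sal. All 4 were lower, beside 16.4% of all tested genes that passed in either direction. The rest of that list could not be read, so these 4 do not describe it. Jund, the Jun protein that pairs with ΔFosB, was at 69.3, 68.0 and 62.8 CPM in Sal–Sal, 30.9, 33.9 and 33.8 CPM in Sal–Coc and 48.6, 32.3 and 29.1 CPM in Coc–Coc. All 6 cocaine pools lay below all Sal–Sal pools. Jund fell by 1.02 on the log2 scale in Sal–Coc (SE 0.16, edgeR adjusted p = 0.00560) and by 0.86 in Coc–Coc (SE 0.16, adjusted p = 0.0186), and the former difference passed without each of the 9 pools in turn. Without Sal–Sal pool 1, Coc–Coc pool 2 or Coc–Coc pool 3 the latter did not pass (adjusted p = 0.0702, 0.0666 and 0.0756).

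Jun, a Jun-family partner of Fos, fell in Sal–Coc from 41.2, 40.7 and 39.6 CPM to 26.3, 23.0 and 29.2 CPM (log2 fold change −0.63, SE 0.15, edgeR adjusted p = 0.0236). The call was lost without Sal–Sal pool 1, Sal–Sal pool 2 or Sal–Coc pool 2 (adjusted p = 0.0865, 0.0543 and 0.0802). In Coc–Coc, at 42.0, 30.3 and 26.8 CPM, Jun did not pass (log2 fold change −0.29, edgeR adjusted p = 0.222), with pool 1 above and the other pools below all saline pools. Egr4, a relative of Egr1, had a log2 fold change of −1.47 (SE 0.40, adjusted p = 0.0368) in Sal–Coc and −1.08 (SE 0.40, adjusted p = 0.107) in Coc–Coc. The Sal–Coc call passed in 8 of 10 other settings, the exceptions being the fit to only the 6 pools compared and the pool number as a block (adjusted p = 0.0541 and 0.0663), and in 3 of 9 fits without 1 pool. Cebpb, a leucine-zipper factor of inflammation and memory, had low levels of 7.05, 6.87 and 3.69 CPM in Sal–Sal and 1.83, 2.26 and 2.41 CPM in Sal–Coc (log2 fold change −1.44, SE 0.30, edgeR adjusted p = 0.0138). It did not pass without Sal–Sal pool 1 (adjusted p = 0.0608), and in Coc–Coc its value was −0.98 (adjusted p = 0.0602).

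Of the 2 activity-induced effectors, Vgf, a neuropeptide precursor, fell by 0.52 on the log2 scale in Sal–Coc (SE 0.14, edgeR adjusted p = 0.0335) and by 0.68 in Coc–Coc (SE 0.14, adjusted p = 0.0220). These calls passed in 4 and 5 of 9 fits without 1 pool, and in 7 and 10 of 10 other settings. The Sal–Coc call was lost with library size only, in the fit to the 6 pools compared and with the block by pool number (adjusted p = 0.0541, 0.0657 and 0.0640). Dusp1, a phosphatase that switches off MAP kinases, was at 39.1, 33.5 and 41.8 CPM in Sal–Sal, 36.8, 43.6 and 36.4 CPM in Sal–Coc and 63.6, 53.8 and 46.9 CPM in Coc–Coc. Every Coc–Coc pool lay above all other pools, and Dusp1 rose by 0.52 in Coc–Coc vs. Sal–Sal (SE 0.13, edgeR adjusted p = 0.0339), a call that passed in 4 of 9 fits without 1 pool and not with the pool number as a block (adjusted p = 0.0630). In Coc–Coc vs. Sal–Coc its value was 0.49 (adjusted p = 0.360). Among the upstream factors, Creb1, the cAMP-responsive activator, fell by 0.66 in Sal–Coc (edgeR adjusted p = 0.0120) and had −0.13 in Coc–Coc (adjusted p = 0.547), while its relative Atf1 rose by 0.42 and 0.46 (adjusted p = 0.0202 and 0.0237), each call passing in 5 of 9 fits without 1 pool. Cdk5r1, the p35 activator of Cdk5, a kinase linked to ΔFosB, fell by 0.49 and 0.47 (edgeR adjusted p = 0.00967 and 0.0199), and these calls passed in 9 and 6 of 9 fits without 1 pool. In Coc–Coc, 5 of these 9 genes (Jun, Jund, Egr4, Cebpb and Dusp1) had the order of pools 1, 2 and 3 seen in the 6 immediate early genes. Over all tested genes this order was held by 19.8%. As the 9 were tied through the study's own calls, their count cannot be read as a share.

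Of 54 cell type markers, 3 could be tied to an identifier, also because the study itself had called them in these libraries. Their changes are not independent evidence, and the markers left untied could not be read. Of 5 endothelial and mural markers, 2 could be tied to an identifier. Pdgfrb was higher in both cocaine groups (log2 fold change 0.54 and 0.57, edgeR adjusted p = 0.0105 and 0.0183), and Flt1 passed in Sal–Coc (0.54, adjusted p = 0.0433) but not in Coc–Coc (0.40, adjusted p = 0.121). Flt1 passed in 2 of 9 fits without 1 pool, and Pdgfrb in 9 and 7 of 9. Pdgfrb was highest in Coc–Coc pool 1, at 36.9 CPM. Flt1 was at 38.7 CPM in that pool and at 37.8 CPM in Sal–Coc pool 1, with overlapping counting intervals. Of 4 erythrocyte markers 1 was tied, the alpha-globin Hba-a2, whose reads may be shared with near-identical copies. Hba-a2 had few reads, with a lowest count of 12 (Sal–Sal pool 2, counting error 28.9%). It was at 0.974, 0.297 and 0.619 CPM in Sal–Sal, 0.539, 1.25 and 0.803 CPM in Sal–Coc and 3.00, 1.53 and 3.55 CPM in Coc–Coc, and rose by 2.11 in Coc–Coc vs. Sal–Sal (SE 0.47, edgeR adjusted p = 0.0276), a call that passed in 4 of 9 fits without 1 pool and not with the pool number as a block (adjusted p = 0.0507). The part of these cells in the values of the immediate early genes was not tested.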

How the data were processed

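Ventral striatum RNA of 3 groups of 3 pools was sequenced as 75 bp single reads from stranded mRNA libraries. The authors deposited raw counts per Ensembl gene (release 84), made with STAR, HTSeq (0.5.3 per the labels) and Eoulsan after reads mapping more than once were removed. Whether counting used strand is not given in the sources used here. Technical replicates were summed per pool. Tests between groups used R 4.3.3 and edgeR 4.0.16 (TMM, filterByExpr, quasi-likelihood fit over 9 pools, Benjamini-Hochberg), and alternatives used DESeq2 1.42.0 and limma 3.58.1. The edgeR, DESeq2 and limma-voom fits were also run on simulated data, and the outcome is not given here. Correlations and exact tests used log2(CPM + 0.1).

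The members and gene lists were chosen with earlier results of these data known. Named were the 6 genes, every listed gene tied to an identifier, and the genes most alike in pattern. Symbols of other genes were joined by finding the identifier whose ratio of group means equalled a fold change listed by the study to 6 digits, which was unique for 1506 symbols. The p-values measure the spread between pools of different rats. Pool numbers recur between groups for different rats. The mean correlation of deviations was −0.03 for pools with the same number and 0.02 for others, so pools were not paired. Counting intervals cover counting error only.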

Additional observations from a re-analysis of the deposited data

How the results depend on the processing

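Under 19 other settings (10 of method and 9 that leave out 1 pool) the number of immediate early genes called was 0 in all 57 counts, and the lowest adjusted p was 0.0645. Differences near 0 changed sign. In Sal–Coc vs. Sal–Sal, Egr1 had −0.0039 with upper-quartile scaling and −0.021 with limma-voom, and Fos had 0.066 with library size only and 0.0041 with limma-voom. In Coc–Coc vs. Sal–Sal, Fos had −0.0019 with upper-quartile scaling, −0.10 with limma-voom and −0.061 with the pool number as a block, and Junb had −0.12 and −0.023 with the latter 2. In Coc–Coc vs. Sal–Coc, Fos had −0.016 with library size only, −0.11 with limma-voom and −0.019 with the block, and Fosb had −0.023 with library size only and −0.014 with technical replicate a alone.

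Leaving out 1 pool gave ranges that crossed 0. In Sal–Coc vs. Sal–Sal they were −0.14 to 0.22 for Fos, −0.16 to 0.28 for Egr1, −0.31 to 0.53 for Arc and −0.062 to 0.096 for Dusp1. In Coc–Coc vs. Sal–Sal they were −0.46 to 0.29 for Fos, −0.48 to 0.34 for Junb and −0.024 to 0.25 for Egr1. In Coc–Coc vs. Sal–Coc they were −0.44 to 0.31 for Fos, −0.20 to 0.15 for Fosb, −0.17 to 0.27 for Egr1 and −0.011 to 0.58 for Nr4a1.

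The number of genes called over all genes moved more. Sal–Coc vs. Sal–Sal had 2572 calls, 1445 with only the 6 pools compared and 982 to 2835 without 1 pool. Coc–Coc vs. Sal–Sal had 1702 calls, 883 with library size only, 2824 with DESeq2, 1126 with the block, 1057 with technical replicate a alone and 0 to 2131 without 1 pool. The 0 came from leaving out Coc–Coc pool 3, and 3533 genes then had an unadjusted edgeR p under 0.05. Coc–Coc vs. Sal–Coc had 0 calls by edgeR (1453 at an unadjusted p under 0.05), 150 with DESeq2, 5 when genes of low count were kept, 3 with technical replicate a alone and 0 to 1 without 1 pool. Higher and lower calls numbered 1655 and 917 in Sal–Coc vs. Sal–Sal, 1462 and 1163 with upper-quartile scaling, and 1863 and 392 with library size only. In Coc–Coc vs. Sal–Sal they numbered 1115 and 587, 957 and 764, and 701 and 182. Pairs of immediate early genes with a correlation that passed numbered 1 by Pearson's r and 1 by Spearman's rho, 7 and 5 with groups centred, and 1 and 0 with library size only. The permutation p-values with groups centred tend to be too small, so 7 and 5 cannot be set against the other counts. The listed genes were run under the same settings, a choice made after seeing the data. The cause of these changes was not tested. With the pool number as a block no call of an immediate early gene changed, and of the listed genes Egr4 and Vgf in Sal–Coc and Dusp1 and Hba-a2 in Coc–Coc no longer passed. Of 9 pools, 2 correlated best with a pool of their own number.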
